A study of Mus musculus with 20 samples.

Results

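Cyp17a1, Abcd2, Prom1 and Ntrk2 are 4 genes known to be held low in mouse liver by pulsatile growth hormone, the secretion pattern of males, and they were followed here in the livers of 20 mice. Every probe set of the array whose only gene symbol was one of these 4 was taken, which gave 13 of 45037 probe sets: 1 for Cyp17a1, 4 for Abcd2, 1 for Prom1 and 7 for Ntrk2. The 4 groups of 5 animals were progeroid restricted, progeroid control, wild type restricted and wild type control, with 1 array per animal. Progeroid mice carried the Ercc1Δ and Ercc1- alleles and therefore lack full function of ERCC1, a subunit of an endonuclease of nucleotide excision and crosslink repair, in every tissue. Wild type mice were littermates, all animals were F1 hybrids of C57BL6J and FVB, and livers were taken at 11 weeks of age. All were kept on AIN93G synthetic pellets. Restriction started at 7 weeks of age with 10% less food and reached 30% at 9 weeks, with food given just before the dark period. Control animals ate freely, and the restricted ration in grams was set separately for each genotype. Growth hormone itself was not among the measurements used here, and neither the sex of the animals nor the hour at which livers were taken is given in the sources used here. Whether the mice secreted growth hormone in the male pattern is therefore not known here, which limits what the values of male- and female-biased genes can be read against.

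Growth hormone reaches the hepatocyte through its receptor, which activates the kinase JAK2 and the transcription factor STAT5. Pulses, typical of male rodents, activate STAT5 intermittently, which keeps male-biased genes high and a class of female-biased genes low, partly through the repressor BCL6. The near-continuous secretion of females, or the loss of pulses, releases these female-biased genes, among them the transcription factor CUX2, which in turn represses male-biased genes. CYP17A1 is the steroid 17alpha-hydroxylase and 17,20-lyase of androgen synthesis, ABCD2 carries very long-chain acyl-CoAs into peroxisomes, prominin 1 (Prom1, also called CD133) is a cholesterol-binding glycoprotein of membrane protrusions and a marker of progenitor cells and bile duct epithelium, and Ntrk2 encodes TrkB, the receptor tyrosine kinase for brain-derived neurotrophic factor.

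Restriction raised Cyp17a1 and Abcd2 in both genotypes and Prom1 in progeroid livers, whereas Ntrk2 did not rise with restriction in either genotype and was lower in restricted than in control livers of wild type mice. The 4 genes therefore did not move as a block. The diet differences of Cyp17a1 in progeroid livers and of Ntrk2 in wild type livers missed the threshold when certain single animals were left out. Cyp17a1 was the only member whose difference of diet effects between the genotypes passed after adjustment over all genes, and it passed narrowly. For Prom1 and Ntrk2 the 95% interval of that difference also left out 0, without passing after adjustment. Cyp17a1 was 28.9-fold higher in restricted than in control livers of wild type mice and 3.25-fold higher in those of progeroid mice.

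Values are log2 expression values that the authors made with RMA, a method that subtracts background, forces the arrays onto a common distribution and merges each probe set's probes into 1 value. Where a gene had several probe sets, the one brightest on average across all 20 arrays represented it, and 17097 genes were tested with limma, with 1 mean per group and p-values adjusted by Benjamini-Hochberg over all genes. Genes with an adjusted p under 0.05 are described as risen or fallen. Levels of different probe sets are not compared with each other, because a probe set's level also depends on how well its probes bind. The summed level of a marker list adds unlogged values across probe sets, so its brightest markers weigh most in it. Arrays correlated between 0.979 and 0.996 with each other, 0 pairs were identical, and precision is limited by having 5 arrays a group. The hepatocyte markers Alb, Ttr, Apoa1, Tat, Cyp2e1, Serpina1c, Fgb and Hnf4a were all measured, none of the 8 had a group mean under 5, and their summed level lay between 16.63 and 16.75 on the log2 scale in every liver, a sum carried by the brightest of them. Of the 8, Tat and Hnf4a were called lower in progeroid than in wild type livers on each diet (Tat 11.56 against 12.47 and Hnf4a 11.75 against 12.12 on the control diet). Of all genes 4.32% were lower on the control diet and 5.44% on the restricted diet. With restriction 1 of the 8 rose and 1 fell in progeroid livers, beside 6.94% and 5.07% of all genes. In wild type livers 0 rose and 1 fell, beside 9.92% and 12.6%. Ercc1, the disrupted gene, was lower in progeroid than in wild type livers on the control diet (5.30 against 6.54) and on the restricted diet (4.80 against 6.15), with every progeroid animal below every wild type animal on each diet. The tissue was measured as a whole, so a change in the share of a cell type and a change in RNA per cell cannot be told apart.

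**Figure D1:**
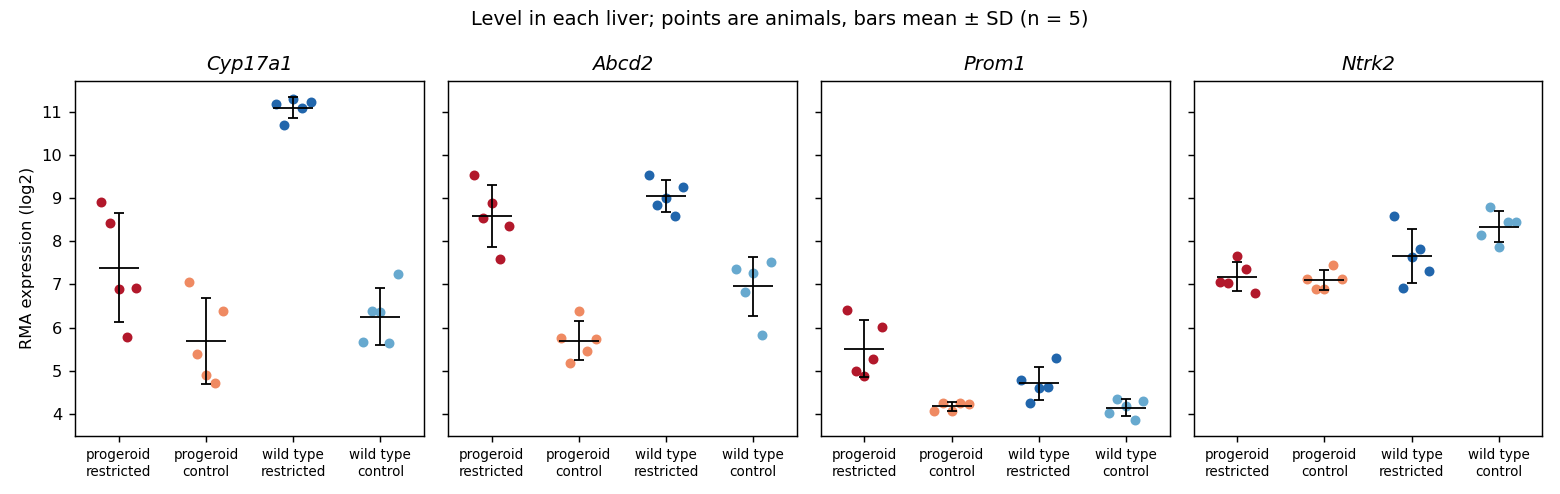
RMA expression (log2) of the representative probe set of each gene in every liver, by group; points are animals and black bars give the mean ± SD (n = 5). Cyp17a1 in wild type restricted livers, between 10.70 and 11.31, lies above all other animals, Abcd2 is high in both restricted groups, Prom1 is highest in progeroid restricted livers, and Ntrk2 is highest in wild type control livers. Heights are not comparable between genes.

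Cyp17a1, the steroid hydroxylase, had 8.92, 8.42, 6.90, 5.79 and 6.93 in progeroid restricted animals 362, 365, 366, 368 and 369, against 7.06, 5.39, 4.90, 4.72 and 6.40 in progeroid control animals 321, 323, 325, 326 and 327. The groups overlapped: restricted animals 366, 368 and 369 lay below the highest control animal, 321. The mean was 7.39 ± 1.27 in progeroid restricted and 5.69 ± 1.0 in progeroid control livers (SD, n = 5 each), a log2 difference of 1.70 ± 0.50 (SE; limma adjusted p = 0.0296). In this comparison 6.94% of all genes rose and 5.07% fell, and Cyp17a1 ranked 29 from the top by fold change. The adjusted p was above 0.05 when any 1 of 5 animals was left out: it was 0.087 without progeroid restricted animal 362, 0.0849 without 365, 0.0687 without progeroid control animal 323, 0.072 without 325 and 0.0811 without 326. It was also 0.0578 with an intensity trend and robust estimation and 0.0933 when only these 2 groups were fitted.

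In wild type mice the same gene separated the diets completely. Cyp17a1 had 11.19, 10.70, 11.31, 11.11 and 11.23 in wild type restricted animals 421 to 425, against 5.66, 6.39, 6.36, 5.64 and 7.23 in wild type control animals 401 to 405. Every restricted animal lay more than 3 log2 units above every control animal. The means were 11.11 ± 0.24 in wild type restricted and 6.26 ± 0.66 in wild type control livers (SD, n = 5 each), a log2 difference of 4.85 ± 0.50 (SE; limma adjusted p = 8.14e-07) and the 4th largest rise of 17097 genes. In this comparison 9.92% of genes rose and 12.6% fell.

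The response of Cyp17a1 to restriction was smaller in progeroid mice. Subtracting the wild type diet effect from the progeroid one gave -3.15 ± 0.70 (log2, SE; 95% interval -4.62 to -1.69; limma adjusted p = 0.0274), which is an 8.88-fold smaller rise. Only 0.374% of all genes were called lower in this test and 1.03% higher, and Cyp17a1 stood 4th from the bottom. The call was close to the threshold and was lost, with an adjusted p between 0.0502 and 0.0596, on leaving out any 1 of 8 animals: progeroid restricted 366 (0.0555) or 369 (0.0596), progeroid control 321 (0.0516) or 327 (0.0523), wild type restricted 423 (0.0572) or 424 (0.0502), or wild type control 401 (0.0561) or 404 (0.0527). It was 0.0586 with an intensity trend and robust estimation, and the size of the difference ranged from -3.53 to -2.75 over these omissions.

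Between the genotypes on restricted food, Cyp17a1 was 13.1-fold lower in progeroid than in wild type livers (log2 difference -3.71 ± 0.50 SE; limma adjusted p = 3.15e-05), with only 2 genes falling further, and every progeroid animal lay below every wild type animal, as did 3.94% of all genes. In this comparison 11.8% of genes were higher and 5.44% lower in progeroid livers. On the control diet its levels, 5.69 in progeroid and 6.26 in wild type livers, gave a difference that did not pass the test (log2 -0.56, 95% interval -1.60 to 0.47; limma adjusted p = 0.541). In the order of its group levels wild type restricted livers came first, apart from the rest. Next came progeroid restricted livers, 1.14 ± 0.50 above wild type control livers (log2, SE), a difference whose 95% interval of 0.10 to 2.17 leaves out 0 but which did not pass after adjustment over all genes (limma adjusted p = 0.101).

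The spread of Cyp17a1 between animals was itself large. Its pooled SD within groups, 0.88 on the log2 scale, exceeded that of 99.8% of genes, and the ranges were 3.13 in progeroid restricted, 2.34 in progeroid control, 0.61 in wild type restricted and 1.59 in wild type control livers. Star, Cyp11a1, Cyp11b1, Cyp21a1 and Nr5a1, which mark steroid-making tissue, were called in 0 of 5 cases in each of the 5 contrasts (an adjusted p under 0.05 by limma), and 4 of the 5 had a mean under 5 in every group. Their summed level was 6.50 to 6.76 in progeroid restricted, 6.64 to 6.78 in progeroid control, 6.72 to 6.83 in wild type restricted and 6.64 to 6.89 in wild type control livers.

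**Figure D2:**
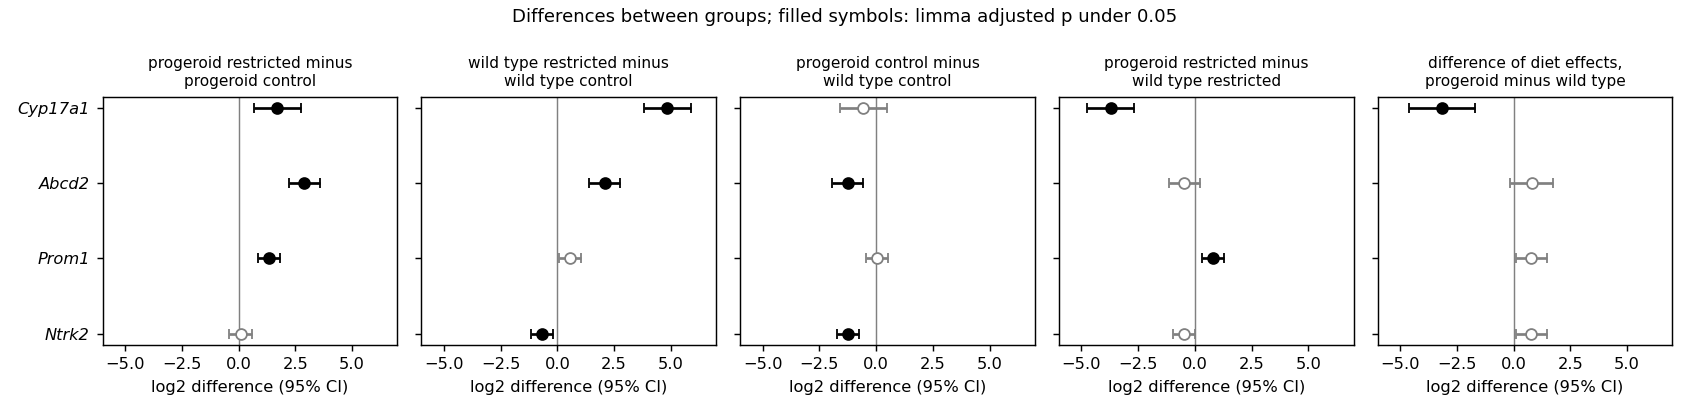
Log2 differences with 95% intervals of the 4 genes in the 5 contrasts; filled symbols mark a limma adjusted p under 0.05 and open symbols the others. Cyp17a1 alone is filled in the difference of diet effects, at -3.15, and Ntrk2 is left of 0 in the wild type diet contrast while Cyp17a1 and Abcd2 are right of 0 in both diet contrasts.

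Abcd2, the peroxisomal transporter, rose with restriction in both genotypes without any overlap of the diets. It had 9.55, 8.55, 8.90, 7.59 and 8.36 in progeroid restricted animals 362, 365, 366, 368 and 369, against 5.76, 5.17, 6.38, 5.45 and 5.74 in progeroid control animals 321, 323, 325, 326 and 327. The means were 8.59 ± 0.72 in progeroid restricted and 5.70 ± 0.45 in progeroid control livers (SD, n = 5 each). The rise of 2.89 ± 0.33 (log2, SE; 7.40-fold; limma adjusted p = 1.25e-05) was the 10th largest of all genes. Every restricted progeroid animal exceeded every control progeroid animal, as did 5.19% of all genes.

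In wild type mice Abcd2 had 9.54, 8.85, 9.01, 8.59 and 9.27 in restricted animals 421 to 425, against 7.36, 6.82, 7.26, 5.84 and 7.53 in control animals 401 to 405. The log2 difference was 2.09 ± 0.33 (SE; 4.27-fold; limma adjusted p = 9.44e-05), again with every restricted animal above every control animal, which 6.9% of genes showed. The diet effects differed by 0.79 ± 0.46 (log2, progeroid less wild type; 95% interval -0.16 to 1.75; limma adjusted p = 0.458), did not pass the test.

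The genotypes differed in Abcd2 on the control diet, where 6.7% of genes were higher and 4.32% lower in progeroid livers. Abcd2 was 2.40-fold lower in progeroid control than in wild type control livers (5.70 ± 0.45 against 6.96 ± 0.68, SD; log2 difference -1.26 ± 0.33 SE; limma adjusted p = 0.0142), with overlapping groups: wild type control animal 404, at 5.84, lay below progeroid control animal 325, at 6.38. On the restricted diet the difference was -0.47 (95% interval -1.14 to 0.21; limma adjusted p = 0.375). In the order of its levels the restricted groups led, and the difference between them did not pass the test. Wild type control livers followed, 1.63 ± 0.33 (log2, SE) below progeroid restricted livers (limma adjusted p = 0.000922; 13.9% of genes were called higher in progeroid restricted livers), and progeroid control livers came last.

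The 4 probe sets of Abcd2 gave the same direction. In a limma fit over all 45037 probe sets, 4 of 4 were called higher with restriction in progeroid livers and 4 of 4 in wild type livers, against 4.81% and 9.88% of all probe sets. Their correlations with the representative probe set, 1438431_PM_at, were 0.996, 0.933 and 0.863 over the 20 arrays. The size of the rise followed the brightness of the probe set: in progeroid livers it was 2.89 for 1438431_PM_at, 2.65 for 1419748_PM_at, 1.62 for 1456812_PM_at and 0.46 for 1439835_PM_x_at, a dim probe set whose group means lay between 3.26 and 3.94. The genotype difference on the control diet passed for 2 of the 4, 1438431_PM_at (adjusted p = 0.0208) and 1419748_PM_at (0.0395), and not for 1456812_PM_at (0.0522) or 1439835_PM_x_at (0.801).

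**Figure D3:**
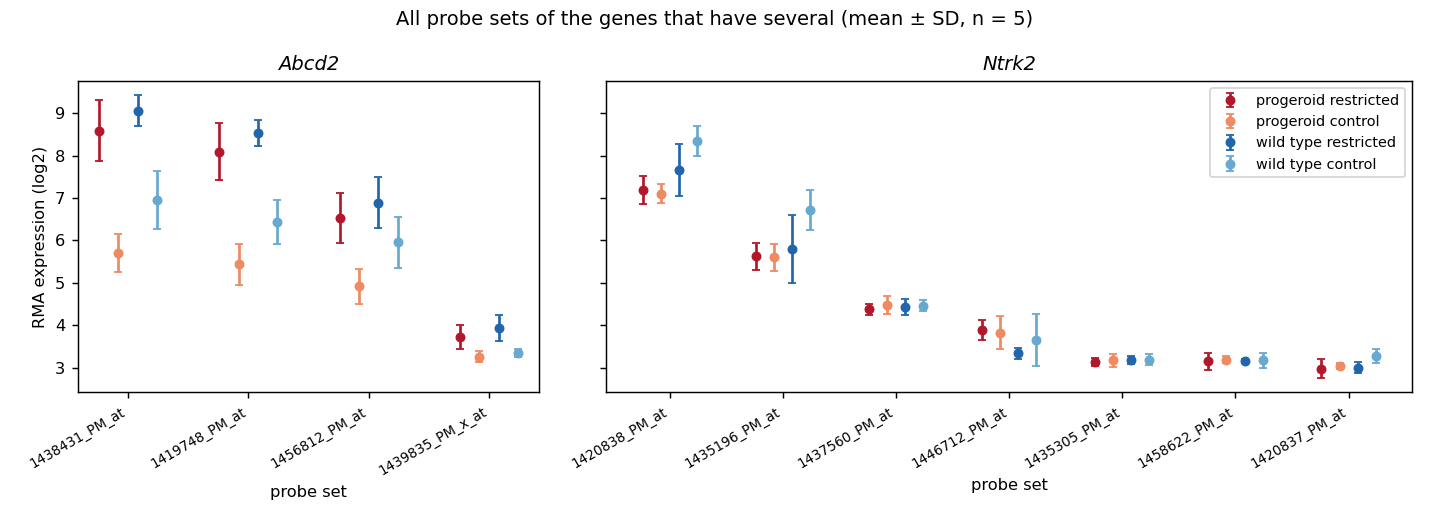
Group means ± SD (n = 5) of RMA expression (log2) for the 4 probe sets of Abcd2 and the 7 of Ntrk2, ordered by mean level. All 4 Abcd2 probe sets are higher in restricted than in control livers of each genotype, and the 2 brightest Ntrk2 probe sets, 1420838_PM_at and 1435196_PM_at, are highest in wild type control livers.

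Other genes of peroxisomal transport and beta-oxidation moved differently in the 2 genotypes. Of 18 measured genes, 6 rose and 0 fell in restricted progeroid livers, where 6.94% of all genes rose and 5.07% fell. In restricted wild type livers 2 rose and 8 fell, beside 9.92% and 12.6% of all genes. Their median log2 differences were 0.21 in progeroid and -0.27 in wild type livers, against -0.01 and -0.03 over all genes. The difference of diet effects, progeroid minus wild type, was called higher for 7 of the 18 and lower for 0. Over all genes 1.03% were called higher and 0.374% lower in that test. The 2 genes named next rose in both genotypes, unlike the 8 that fell in wild type livers. Abcd4, a relative of Abcd2 that acts in cobalamin transport from lysosomes, rose by 0.56 ± 0.09 in progeroid and 0.81 ± 0.09 in wild type livers (log2, SE). Ehhadh, the bifunctional enzyme of peroxisomal beta-oxidation, rose by 0.70 ± 0.12 in progeroid and 0.38 ± 0.12 in wild type livers (limma adjusted p = 0.000589 and 0.0257).

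Prom1, the membrane glycoprotein, was near the median probe set on control food, at group means of 4.17 in progeroid and 4.14 in wild type livers on a scale that runs between 2.19 and 14.51, and rose in restricted progeroid livers. It had 6.40, 4.99, 4.89, 5.27 and 6.01 in progeroid restricted animals 362, 365, 366, 368 and 369, against 4.06, 4.25, 4.06, 4.24 and 4.23 in progeroid control animals 321, 323, 325, 326 and 327. Every restricted animal lay above every control animal. The means were 5.51 ± 0.66 in progeroid restricted and 4.17 ± 0.10 in progeroid control livers (SD, n = 5 each), a 2.53-fold difference (log2 1.34 ± 0.23 SE; limma adjusted p = 0.000631).

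In wild type mice Prom1 had 4.78, 4.25, 4.60, 4.61 and 5.30 in restricted animals 421 to 425, against 4.01, 4.35, 4.19, 3.86 and 4.30 in control animals 401 to 405. Restricted animal 422 lay below the highest control animals, and the log2 difference of 0.57 ± 0.23 (SE; 95% interval 0.09 to 1.04) did not pass the test (limma adjusted p = 0.0829). It passed without restricted animal 422 (0.0488) and without progeroid restricted animal 362, which enters only through the shared estimate of spread (0.0328), and also with array weights (0.0395) and with only these 2 groups in the fit (0.0305). The diet effects of the genotypes differed by 0.78 ± 0.32 (log2, SE, progeroid minus wild type, 95% interval 0.10 to 1.45). This interval leaves out 0, but the difference did not pass either (limma adjusted p = 0.269).

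Prom1 was higher in progeroid restricted than in wild type restricted livers by 0.80 ± 0.23 (log2, SE; 1.74-fold; limma adjusted p = 0.0182), with overlapping groups. That call was lost without progeroid restricted animal 369 (0.0587) or wild type restricted animal 422 (0.0549), with array weights (0.0508) and with only these 2 groups in the fit (0.0747). Between progeroid control and wild type control livers the log2 difference was 0.03, with a 95% interval of -0.45 to 0.50 (limma adjusted p = 0.963). In the order of its levels progeroid restricted livers came first, followed by wild type restricted livers. Progeroid control livers were 0.54 below wild type restricted livers (log2 difference -0.54, 95% interval -1.02 to -0.06), and neither this nor the wild type diet difference given above passed after adjustment over all genes (limma adjusted p = 0.0872 and 0.0829), though both intervals leave out 0. The mean percentile of Prom1 among all probe sets was 64.2 in progeroid restricted and 49.5 in progeroid control livers.

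Markers of bile duct epithelium and progenitor cells, where Prom1 is best known, did not pass the test with diet. Of 9 measured markers (Krt7, Krt19, Sox9, Epcam, Cftr, Tspan8, Cldn7, Cldn4 and Muc1), 0 were called in either diet contrast by limma. Their summed level was 6.94 to 7.42 in progeroid restricted and 7.06 to 7.31 in progeroid control livers, and 8 of the 9 in the restricted group and 9 of the 9 in the control group had a mean under 5. In the wild type groups the sums were 6.84 to 7.00 on restricted and 6.78 to 6.93 on control food. Between the genotypes on restricted food, where Prom1 and Cyp17a1 differed in opposite directions, 1 of these 9 markers, 5 of 6 Kupffer cell markers and 4 of 9 stellate cell markers were higher and 0 lower in progeroid livers. Of 5 sinusoidal endothelium markers 1 was higher and 0 lower. Over all genes 11.8% were higher and 5.44% lower in that comparison. The Kupffer cell sums were 11.78 to 12.57 in progeroid restricted and 11.11 to 11.71 in wild type restricted livers, and the stellate cell sums were 12.23 to 12.69 in progeroid restricted and 12.10 to 12.45 in wild type restricted livers. Their part in these differences was not tested. Of 10 genes of the prominin family and of microvillus proteins, with a median log2 difference of -0.04 against -0.01 over all genes, 0 rose and 2 fell in restricted progeroid livers, where 5.07% of all genes fell: Pdzk1, a scaffold of apical transporters (log2 difference -0.29 ± 0.07 SE), and Cdhr5, a microvillus cadherin (-0.50 ± 0.14). In restricted wild type livers 1 of the 10 rose and 2 fell, beside 9.92% and 12.6% of all genes. On restricted food 4 were higher and 1 lower in progeroid than in wild type livers, beside 11.8% and 5.44% of all genes. The difference of diet effects was called for 1 of the 10, which was lower, beside 0.374% of all genes.

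Ntrk2, the neurotrophin receptor, did not move with the other members. It had 7.06, 7.05, 7.66, 7.35 and 6.80 in progeroid restricted animals 362, 365, 366, 368 and 369, against 7.12, 6.90, 6.89, 7.45 and 7.13 in progeroid control animals 321, 323, 325, 326 and 327. These groups overlapped fully, and their log2 difference was 0.08 with a 95% interval of -0.40 to 0.57 (limma adjusted p = 0.869). In wild type mice it had 8.58, 6.93, 7.63, 7.83 and 7.32 in restricted animals 421 to 425, against 8.15, 8.80, 7.87, 8.45 and 8.45 in control animals 401 to 405. Restricted animal 421 lay among the controls and the other 4 below all of them.

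The mean of Ntrk2 was 7.66 ± 0.62 in wild type restricted and 8.34 ± 0.35 in wild type control livers (SD, n = 5 each), a 1.61-fold fall (log2 difference -0.69 ± 0.23 SE; limma adjusted p = 0.0393). This call was lost without restricted animal 422 (0.125), 423 (0.0703) or 425 (0.1) or control animal 402 (0.107), 404 (0.0759) or 405 (0.0726), and also with an intensity trend and robust estimation (0.0521) and with only these 2 groups in the fit (0.0884). The diet effects differed by 0.77 ± 0.33 (log2, SE, progeroid minus wild type, 95% interval 0.08 to 1.46). This interval leaves out 0, but the difference did not pass after adjustment (limma adjusted p = 0.284).

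The firmer difference in Ntrk2 was that of genotype on the control diet. It was 2.37-fold lower in progeroid control than in wild type control livers (7.10 ± 0.23 against 8.34 ± 0.35, SD, n = 5 each; log2 difference -1.25 ± 0.23 SE; limma adjusted p = 0.00117), and every progeroid animal lay below every wild type animal, as did 3.95% of all genes. On the restricted diet the difference was -0.48 (95% interval -0.96 to 0.01; limma adjusted p = 0.178), and it passed the test without wild type restricted animal 422 (-0.66; 0.0492). In the order of its levels wild type control livers led and wild type restricted livers came next. Progeroid restricted and progeroid control livers followed. Progeroid control livers differed from wild type restricted livers by -0.56 (log2, 95% interval -1.05 to -0.07), an interval that leaves out 0, without passing after adjustment over all genes (limma adjusted p = 0.081).

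Of the 7 probe sets of Ntrk2, the other bright one, 1435196_PM_at, followed the representative one, 1420838_PM_at, with a correlation of 0.93 over the 20 arrays. It was at 5.60 ± 0.32 in progeroid control livers, against 6.71 ± 0.47 in wild type control livers (SD; log2 difference -1.11; adjusted p = 0.0224 by limma over all probe sets), and at 5.80 ± 0.79 in wild type restricted livers (difference from wild type control -0.92; 0.0317). Thus 2 of 7 probe sets were called lower in each of these comparisons, against 2.96% of all probe sets for genotype and 9.09% for diet. The remaining 5 probe sets had group means between 2.98 and 4.48 and were called in 0 of the 5 contrasts by limma. Which transcript form of the receptor each probe set reads was not examined here.

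Of 7 measured ligands, receptors and adaptors, 0 rose and 1 fell in restricted progeroid livers, and 1 rose and 3 fell in restricted wild type livers, beside 6.94% and 5.07% of all genes in progeroid and 9.92% and 12.6% in wild type livers. Their median log2 differences were -0.21 in progeroid and -0.06 in wild type livers, against -0.01 and -0.03 over all genes. Ngfr, the low-affinity neurotrophin receptor, fell by 0.46 ± 0.15 in progeroid and by 0.61 ± 0.15 in wild type livers with restriction (log2, SE; limma adjusted p = 0.0438 and 0.00499). Bdnf, the ligand of TrkB, was at 4.36 in progeroid restricted and 4.67 in progeroid control livers (limma adjusted p = 0.0729), and fell by 0.48 ± 0.11 in wild type livers. Some markers of cells other than hepatocytes moved in the comparison that carried the Ntrk2 difference. There 6.7% of all genes were higher and 4.32% lower in progeroid livers. Of 9 stellate cell markers, Ngfr among them, 3 were higher and 0 lower in progeroid control than in wild type control livers. Their summed level was 12.5 to 12.7 in progeroid control livers, against 11.8 to 12.3 in wild type control livers. In the same comparison 2 of 6 Kupffer cell markers and 1 of 9 bile duct and progenitor markers were higher, and 2 of 8 hepatocyte markers lower. Of 5 sinusoidal endothelium markers 0 were called. The Kupffer cell sums were 11.9 to 12.5 in progeroid control livers, against 11.6 to 11.9 in wild type control livers. With restriction in wild type mice, 2 stellate cell markers rose and 3 fell, and 2 Kupffer cell markers fell. Of the sinusoidal endothelium markers 0 rose and 1 fell, beside the 9.92% and 12.6% of all genes given above. The part of these cells in the Ntrk2 differences was not tested. The nerve and glia markers S100b, Gfap and Tubb3 all had means under 5 in every group.

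Promoter windows of 300 bases around a RefSeq start are shown for the 2 of 4 members matched in the RefSeq promoter table, Prom1, which rose in restricted progeroid livers, and Ntrk2, which did not. The first lies at chr5:44101687-44101986 on the minus strand and the second at chr13:58806319-58806618 on the plus strand (RefSeq, GRCm38.p6, 5′ to 3′ along the gene); Prom1 has a further start in that table.
Prom1: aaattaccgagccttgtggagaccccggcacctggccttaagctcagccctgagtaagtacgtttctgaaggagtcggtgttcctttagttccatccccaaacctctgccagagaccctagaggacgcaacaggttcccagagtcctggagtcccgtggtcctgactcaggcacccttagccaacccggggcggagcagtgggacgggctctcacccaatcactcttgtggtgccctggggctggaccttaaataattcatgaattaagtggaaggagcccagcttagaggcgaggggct
Ntrk2: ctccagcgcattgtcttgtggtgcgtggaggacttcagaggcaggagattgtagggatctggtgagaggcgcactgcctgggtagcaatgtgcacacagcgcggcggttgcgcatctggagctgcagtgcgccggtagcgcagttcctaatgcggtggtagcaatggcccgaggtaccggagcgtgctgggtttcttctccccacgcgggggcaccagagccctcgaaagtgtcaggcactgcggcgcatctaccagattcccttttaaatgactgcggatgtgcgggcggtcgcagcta
Neither window, nor the further Prom1 window, held the STAT5 motif TTCNNNGAA, the ONECUT1 motif ATCAAT, the CUX2 motif ATCGAT or the FOXA motif TGTTTAC on either strand. Of all 32851 promoter windows of that length in the table, 8.3%, 7.54%, 0.925% and 3.65% held these motifs in that order. Sequences without capitals carry no match, which says only that these letters are not in these windows. Cyp17a1 and Abcd2 are named only.

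Male-biased genes fell and other female-biased genes rose with restriction. Of 17 listed male-biased genes 13 were measured. Restriction lowered 13 of these 13 in progeroid mice and 11 of them in wild type mice, where 5.07% and 12.6% of all genes fell. Their median log2 differences were -1.25 and -2.10, against -0.01 and -0.03 over all genes. Elovl3, a fatty acid elongase, fell by 4.74 ± 0.33 in progeroid and by 6.92 ± 0.33 in wild type livers, and Nudt7, a peroxisomal coenzyme A diphosphatase, by 1.20 ± 0.10 and 1.35 ± 0.10 (log2, SE). Of 17 other female-biased genes listed 10 were measured. Of these 10, 8 rose in restricted progeroid livers and 10 in restricted wild type livers, with medians of 2.10 and 2.47. Over all genes 6.94% rose in progeroid and 9.92% in wild type livers. Trim24, a transcriptional cofactor, rose by 1.91 ± 0.17 in progeroid and 2.72 ± 0.17 in wild type livers, and Cyp2c39, a cytochrome P450, by 3.15 ± 0.27 and 2.21 ± 0.27 (log2, SE). On restricted food 7 of the 13 male-biased genes were higher and 1 lower in progeroid than in wild type livers. Of the 10 female-biased genes 0 were higher and 5 lower, beside 11.8% and 5.44% of all genes. The difference of diet effects was called higher for 4 of the 13 and lower for 1. For the 10 it was called higher for 0 and lower for 1, beside 1.03% and 0.374% of all genes. Of the steroid synthesis genes and their electron donors, 0 of 11 rose and 1 fell in restricted livers of each genotype, namely Hsd3b2, a 3beta-hydroxysteroid dehydrogenase, by 1.74 ± 0.15 in progeroid livers. Cyp11a1, the first enzyme of steroid synthesis, was at 4.01 in progeroid restricted and 4.18 in progeroid control livers (limma adjusted p = 0.219).

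Among 14 genes of growth hormone signalling, 1 rose and 2 fell in restricted progeroid livers, and 2 rose and 4 fell in restricted wild type livers, where all genes gave 6.94% risen and 5.07% fallen in progeroid and 9.92% risen and 12.6% fallen in wild type livers. The median log2 differences were -0.22 in progeroid and -0.09 in wild type livers, against -0.01 and -0.03 over all genes. Cux2 is in this list and also in that of other female-biased genes, so its rise counts in both. Ghr, the growth hormone receptor, fell by 0.48 ± 0.07 in progeroid and by 0.58 ± 0.07 in wild type livers (log2, SE). Igf1, the secreted growth factor that growth hormone induces, fell by 0.23 ± 0.06 in restricted wild type livers (limma adjusted p = 0.0105), and its difference in progeroid livers, -0.18 ± 0.06, did not pass (0.0675). Stat5b, the signal transducer, did not pass in either genotype (limma adjusted p = 0.233 in progeroid and 0.216 in wild type livers).

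Cux2, the female-biased repressor, rose by 2.75 ± 0.41 in progeroid and 4.70 ± 0.41 in wild type livers with restriction (log2, SE), and the difference of its diet effects did not pass after adjustment (-1.94 ± 0.59, progeroid minus wild type; limma adjusted p = 0.111). It was 7.52, 7.79, 7.36, 4.91 and 5.35 in progeroid restricted animals 362, 365, 366, 368 and 369, against 3.73 to 4.07 in progeroid control animals. Every restricted animal was above every control animal, and animal 368 was lowest in Cux2, Cyp17a1 and Abcd2 alike. Bcl6, the repressor of female-biased genes, varied widely: it was 5.46 to 7.32 in progeroid restricted and 6.62 to 9.56 in progeroid control livers (limma adjusted p = 0.162), and fell by 2.71 ± 0.63 in restricted wild type livers (0.00344). Socs2, a feedback inhibitor induced by STAT5, was 9.55 to 11.25 in progeroid restricted and 7.24 to 11.06 in progeroid control livers (limma adjusted p = 0.358), and rose by 2.35 ± 0.62 in restricted wild type livers (0.00915).

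**Figure D4:**
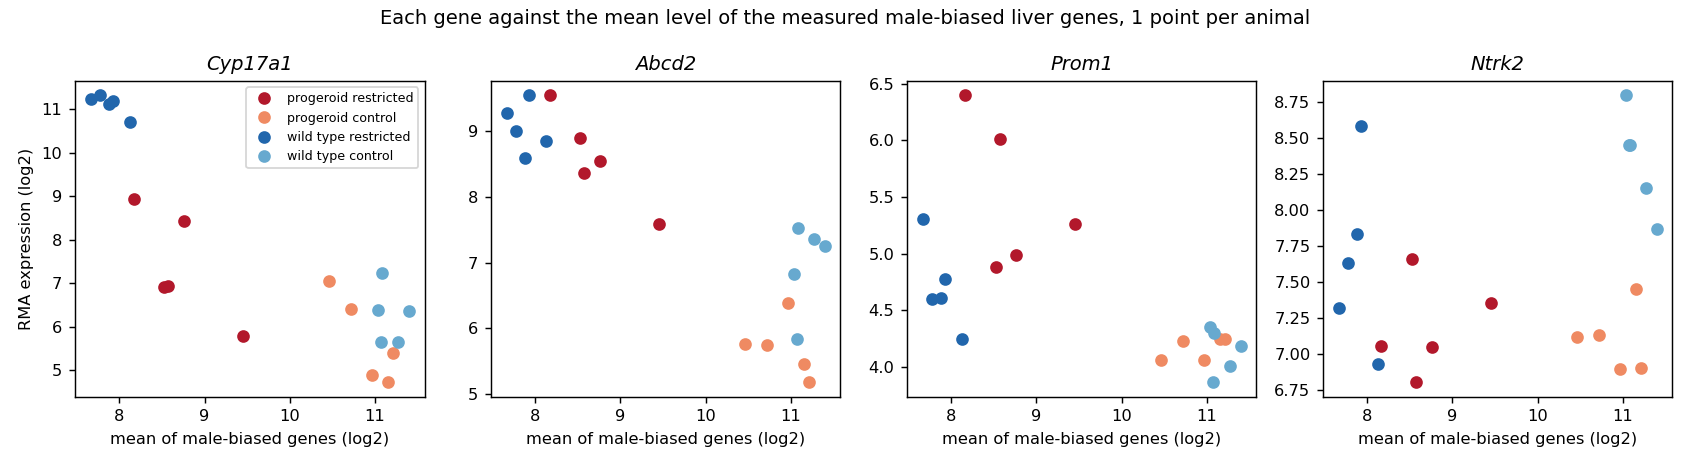
RMA expression (log2) of each gene against the mean log2 level of the 13 measured male-biased liver genes, 1 point per animal, coloured by group. Progeroid restricted animals lie between 8.17 and 9.45 on the horizontal axis, above the wild type restricted animals at 7.67 to 8.13 and below all control animals; Cyp17a1 is at 5.79 and Abcd2 at 7.59 in the progeroid restricted animal farthest to the right, 368.

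Animals kept a partly shared order across members in some groups but not in progeroid control livers. Progeroid restricted animal 362 was highest of its group in Cyp17a1, Abcd2 and Prom1, and it also had the lowest mean of the male-biased genes in its group, 8.17. Animal 368 was lowest in Cyp17a1 and Abcd2 and had the highest such mean, 9.45, but stood in the middle in Prom1. Wild type control animal 404 was lowest of its group in Cyp17a1, Abcd2 and Prom1. Among progeroid control livers, animal 321 was highest in Cyp17a1 and lowest in Prom1, and animal 323 was highest in Prom1 and lowest in Abcd2. With group means removed, the correlations over the 20 arrays were 0.51 between Cyp17a1 and Abcd2, 0.36 between Abcd2 and Prom1 and 0.33 between Cyp17a1 and Prom1, and -0.04, -0.02 and -0.10 for Ntrk2 with Cyp17a1, Abcd2 and Prom1. These values describe arrays that share a normalisation.

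The genes whose pattern over the 20 arrays was most like each member differed between members. Pearson correlations ranked 17096 genes, provisional symbols were passed over in naming, and differences between the 4 groups weigh in them. For Abcd2 the nearest were Zc3h14, a poly(A)-binding zinc finger protein (0.948), Acot3, a peroxisomal acyl-CoA thioesterase (0.946), Cert1, a ceramide carrier (0.938), Cyp2c39 (0.937) and Cabcoco1 (0.936), and the most opposite were Omd (-0.922), Galnt4 (-0.919) and Zfp706 (-0.908). For Prom1 they were Slc25a10, the mitochondrial dicarboxylate carrier (0.88), Coq9 (0.864), Abcb1a, a drug efflux pump (0.862), Ktn1 (0.861) and Rundc3b (0.853), with Serpina1c (-0.889), Armcx3 (-0.853) and Pdia6 (-0.847) most opposite. For Ntrk2 they were Ccl1 (0.918), whose mean over the arrays was only 3.89, the kinase Hipk2 (0.854), Rptor, a subunit of mTORC1 (0.848), Efr3a (0.848) and Shb (0.848), with Gpx4 (-0.852), Tmem62 (-0.851) and Fam118a (-0.848) most opposite. Among the members themselves, Abcd2 ranked 278 in likeness to Cyp17a1 (0.793), Prom1 3389 (0.336) and Ntrk2 7213 (0.0372).

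For Cyp17a1 the gene most alike was As3mt (0.975), which encodes the arsenite methyltransferase and lies 2 genes away on chromosome 19. Pcmt1, a protein repair methyltransferase (0.963), Gtdc1 (0.963), Slc10a1, the bile acid uptake carrier NTCP (0.953), and Haus7 (0.952) followed, and Mug1 (-0.969), Cyp2c23 (-0.967) and Cfi (-0.952) were most opposite. As3mt was 8.42, 8.07, 7.77, 7.14 and 7.72 in progeroid restricted animals 362, 365, 366, 368 and 369, against 7.31, 6.72, 6.48, 6.55 and 6.91 in progeroid control animals 321, 323, 325, 326 and 327. It was 9.31, 9.28, 9.64, 9.45 and 9.55 in wild type restricted animals 421 to 425, against 7.42, 7.48, 7.58, 7.40 and 8.02 in wild type control animals 401 to 405. The highest and lowest animal of each group in As3mt were those of Cyp17a1 in progeroid restricted, wild type restricted and wild type control livers, and in progeroid control livers the highest was shared and the lowest was not. With group means removed the correlation was 0.952, again the highest of all genes.

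As3mt rose with restriction by 1.03 ± 0.19 in progeroid and 1.86 ± 0.19 in wild type livers, and was lower in progeroid than in wild type livers by 0.79 ± 0.19 on the control and 1.62 ± 0.19 on the restricted diet (log2, SE; limma adjusted p = 0.00121, 6.86e-07, 0.00831 and 6.44e-06). Its difference of diet effects, -0.83 ± 0.27, did not pass (0.133). Borcs7, a subunit of a lysosome positioning complex and the gene between them, ranked 36 in likeness to Cyp17a1 (0.894). It rose by 0.95 ± 0.11 in restricted wild type livers (limma adjusted p = 4.19e-06), its rise of 0.33 ± 0.11 in progeroid livers did not pass (0.0581), and with group means removed its correlation was 0.18. On the other side, Wbp1l ranked 1370, Sfxn2 747 and Arl3 3818. Sfxn2 rose with restriction by 0.36 ± 0.09 in progeroid and 0.49 ± 0.09 in wild type livers (log2, SE, limma adjusted p = 0.0105 and 0.000371). The diet differences of Wbp1l and Arl3 did not pass in either genotype. With group means removed the correlations of Wbp1l and Sfxn2 were 0.03 and -0.04, while that of Arl3 was 0.552, rank 430 and above that of Borcs7. These neighbours were looked at after the rank of As3mt was seen. Of the other members' measured neighbours within 3 protein-coding genes on either side, the most alike ranked 780 for Abcd2 (Kif21a), 540 for Prom1 (Tapt1) and 6470 for Ntrk2 (Agtpbp1). Sequence overlap between the probe sets was not tested.

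**Figure D5:**
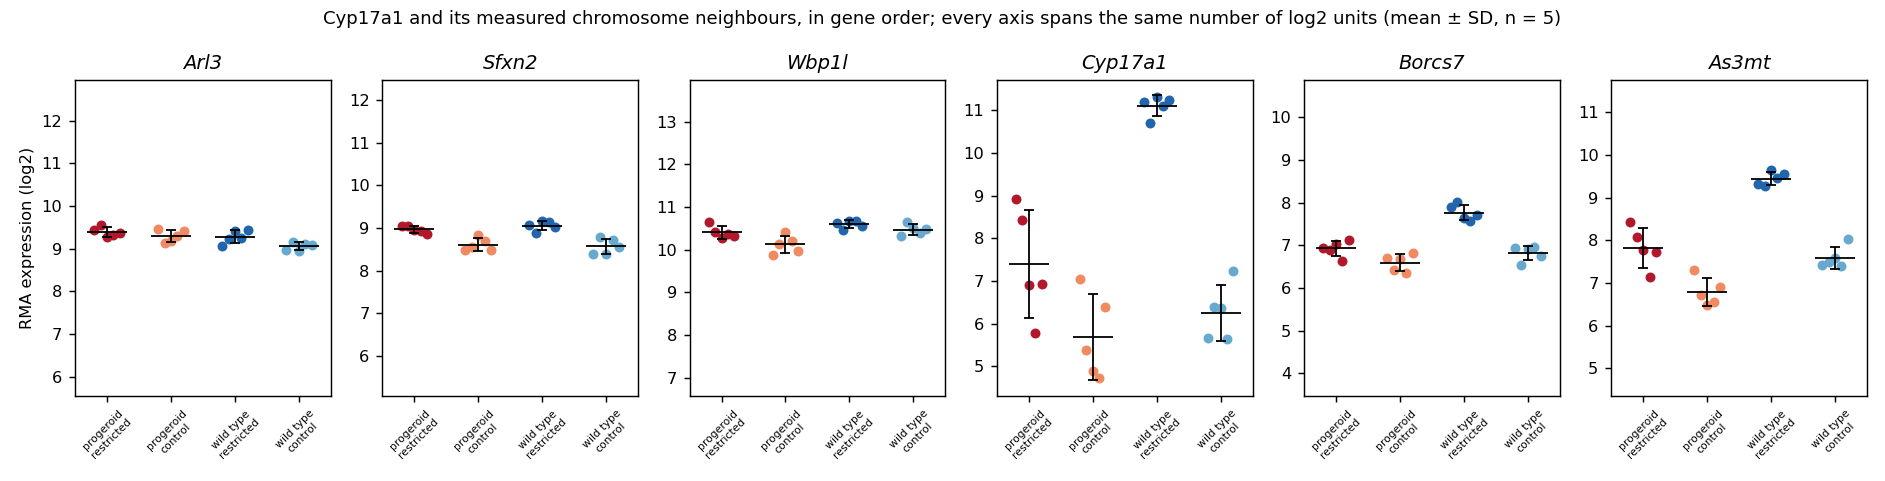
RMA expression (log2) of Cyp17a1 and its measured neighbours on chromosome 19, in gene order, by group; points are animals, black bars mean ± SD (n = 5), and all vertical axes span the same number of log2 units. As3mt and Borcs7, on 1 side of Cyp17a1, are highest in wild type restricted livers as Cyp17a1 is. Arl3, Sfxn2 and Wbp1l, on the other side, differ less between groups. Sfxn2 and Wbp1l also have their highest mean in wild type restricted livers, and Sfxn2 is higher in restricted than in control livers of each genotype.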

How the data were processed

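RNA of 20 mouse livers was hybridised to 1 Affymetrix-type array each (45141 probe sets). Values were deposited as log2 expression, and the submitters' processing notes name RMA as the method the authors used. RMA gives all arrays 1 distribution, so a shift shared by most genes is removed, and it has no true zero. The genome build is not given in the sources used here. Array medians were 4.17 to 4.21.

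The 104 control probe sets were left out. GEO's platform annotation gave 1 symbol for 28898 probe sets, several for 551 and none for 15588; 28689 of the first were found in RefSeq's gene table by gene ID, and 0 symbols changed. Each of 17097 genes was represented by its probe set that was brightest on average. limma 3.58.1 (R 4.3.3) fitted 4 group means with eBayes, with 16 residual degrees of freedom before moderation, and p-values were adjusted by Benjamini-Hochberg per contrast at 0.05. A second fit used all 45037 probe sets. Groups came from the labels, each animal giving 1 array. The fit was tested on simulated data. Figures were drawn with Python 3.11.15 and matplotlib 3.10.9.

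Named were the members, per member the 5 genes with the highest and 3 with the lowest Pearson correlation, per list the 2 genes with the smallest adjusted p in progeroid restricted against progeroid control livers, and Igf1, Ghr, Stat5b, Socs2, Bcl6, Cux2 and Ercc1. The neighbours of Cyp17a1 fall outside that rule. The members and lists were chosen with earlier results of these data known. Lists are described by counts and medians without a test. The alternatives were other scalings, filters on dim probe sets, other representative probe sets, an intensity trend with robust estimation, array weights, only the groups compared, and each animal left out.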

Additional observations from a re-analysis of the deposited data

Results flagged for a closer look

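The diet effect on Cyp17a1 differed between the genotypes by -3.15 (log2, progeroid minus wild type), a difference that passed its own test. Among 52 groups of 5 animals examined (13 probe sets in 4 groups), 2 held an animal far from the rest, and chance flags about 1 in 20 groups. The Abcd2 probe set 1456812_PM_at was at 4.91 in wild type control animal 404, with the nearest animal at 6.01. The Ntrk2 probe set 1435305_PM_at was at 3.43 in progeroid control animal 327, with the nearest at 3.16.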

How the results depend on the processing

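Of 20 results, each a member in a contrast, 12 kept their direction and their side of the threshold under every alternative run, which were 20 that left out 1 animal and 10 others; 8 did not. The cause was not tested. No paired analysis was possible because no animal number is shared between groups. With an intensity trend and robust estimation, adjusted p rose to 0.0578 for the diet effect on Cyp17a1 in progeroid livers (1.70), 0.0521 for Ntrk2 in wild type livers (-0.69) and 0.0586 for the difference of diet effects on Cyp17a1 (-3.15). With only the groups compared, it was 0.0933 for Cyp17a1 in progeroid livers (1.70), 0.0884 for Ntrk2 in wild type livers (-0.69), 0.0747 for the genotype difference of Prom1 on restriction (0.80) and 0.0305 for Prom1 in wild type livers (0.57). With array weights these last Prom1 values were 0.63 (0.0508) and 0.65 (0.0395), and 363 genes were called in the difference of diet effects, against 240. The sign turned for Prom1 between genotypes on control food with 75th percentile centring (-0.0050) and for Ntrk2 in progeroid livers with the mean of all probe sets (-0.011), neither called.

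Leaving out 1 animal at a time gave 1.32 to 2.10 for Cyp17a1 with diet in progeroid livers, -3.53 to -2.75 for its difference of diet effects, -0.92 to -0.50 for Ntrk2 with diet in wild type and -0.035 to 0.18 in progeroid livers, -0.66 to -0.25 for Ntrk2 between genotypes on restriction, 0.42 to 0.68 for Prom1 with diet in wild type livers, 0.58 to 0.96 for Prom1 between genotypes on restriction and -0.042 to 0.080 on control food. Genes called in the difference of diet effects numbered 103 to 490. Prom1 had no value with an overall mean of at least 6 or without suffixed probe sets. Dim probe sets, 5 animals a group and the unrecorded hour of sampling limit these values.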
